A study of Mus musculus with 5 samples.

Results

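Immature neutrophils that had left the cell cycle and were rich in transcripts of the secondary granules were picked out of sorted mouse neutrophils, chosen by their own transcript counts. A cell barcode was kept when Camp, Ltf and Ngp together made up at least 3% of its UMIs (unique molecular identifiers, 1 for each captured transcript). It also had to hold fewer than 3 UMIs of the cell cycle genes Mki67, Top2a, Ube2c, Cdk1 and Birc5 and fewer than 5 UMIs of the primary granule genes Elane, Mpo, Prtn3 and Ctsg. At least 200 genes, under 10% mitochondrial UMIs and a hashtag holding at least 80% and 20 of the barcode's named tag counts were required. These limits left 1546 of the 26406 barcodes, of which 807 came from the naive, 589 from the AT3 and 150 from the AT3-gcsf library.

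The neutrophils came from bone marrow, peripheral blood and lung of wild-type female C57BL/6J mice, were sorted by flow cytometry and were run on a 10x Chromium chip, each condition in a lane of its own. The naive mice carried no tumour, the AT3 mice carried tumours of AT3, a mouse mammary carcinoma line, and the AT3-gcsf mice carried tumours of a line of that name, which by its name is a G-CSF form of AT3. No age, time after tumour inoculation or number of pooled mice is given in the sources used here. With 1 library a condition there was no replicate and no test between conditions, and condition and lane cannot be told apart. The comparisons share libraries, so their values are given side by side and are not independent. All levels below are CPM, a gene's UMIs summed over the gated cells and scaled to the same total for every sum, and log2 ratios were taken after adding 5 CPM to both values. Intervals are exact at 95% and cover counting error only.

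Neutrophils build their granules in sequence while they mature in the bone marrow. Promyelocytes make the primary granules with elastase and myeloperoxidase, myelocytes and metamyelocytes make the secondary granules with lactoferrin and cathelicidin, and band cells make the gelatinase granules. The step to secondary granules needs the transcription factor C/EBP epsilon and goes with exit from the cell cycle, while C/EBP beta is known for granulopoiesis under stress. G-CSF, acting through its receptor Csf3r and STAT3, speeds neutrophil production and release, and the receptor Cxcr4 holds neutrophils in the marrow.

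Each library pooled 3 populations of cells, each marked with an antibody that carries a 15-base tag. The tags are shown because they are the sequences by which every gated cell was placed in its population; all letters matter for the match, so none is in capitals.
MHTO3: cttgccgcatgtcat
MHTO4: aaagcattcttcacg
MHTO5: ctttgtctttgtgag
MHTO7: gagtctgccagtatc
MHTO8: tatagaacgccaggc
MHTO10: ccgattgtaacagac
Naive and AT3-gcsf cells carried MHTO3, MHTO4 and MHTO5, and AT3 cells carried MHTO7, MHTO8 and MHTO10. The labels name tags by number only, so no tissue was assigned, a shared number does not mean a shared tissue, and populations of a library are not replicates.

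Gated cells were most frequent in the naive library and least frequent in the AT3-gcsf library. They made up 10.9% (interval 10.2 to 11.7) of 7376 tagged naive cells, 7.73% (7.14 to 8.36) of 7615 tagged AT3 cells and 1.48% (1.25 to 1.73) of 10164 tagged AT3-gcsf cells. The 3 intervals did not overlap, but they hold no spread between mice, and the shares depend on how cells of the tissues were sorted and loaded. Most of the naive gated cells came from a single population, MHTO4, with 787 of 2130 cells in the gate (36.9%), against 13 of 2849 for MHTO3 and 7 of 2397 for MHTO5. Likewise AT3 MHTO7 held 476 gated of 1986 cells (23.97%), while MHTO8 held 85 of 3087 (2.75%) and MHTO10 held 28 of 2542 (1.10%). In the AT3-gcsf library no population passed 3%, with 83 of 3576 cells for MHTO4 (2.32%), 42 of 2867 for MHTO3 (1.46%) and 25 of 3721 for MHTO5 (0.672%). The populations richest in gated cells thus stood at 36.9% in naive, 23.97% in AT3 and 2.32% in AT3-gcsf. Each naive level given below is in effect that of MHTO4, without which 20 naive cells remain.

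**Figure D1:**
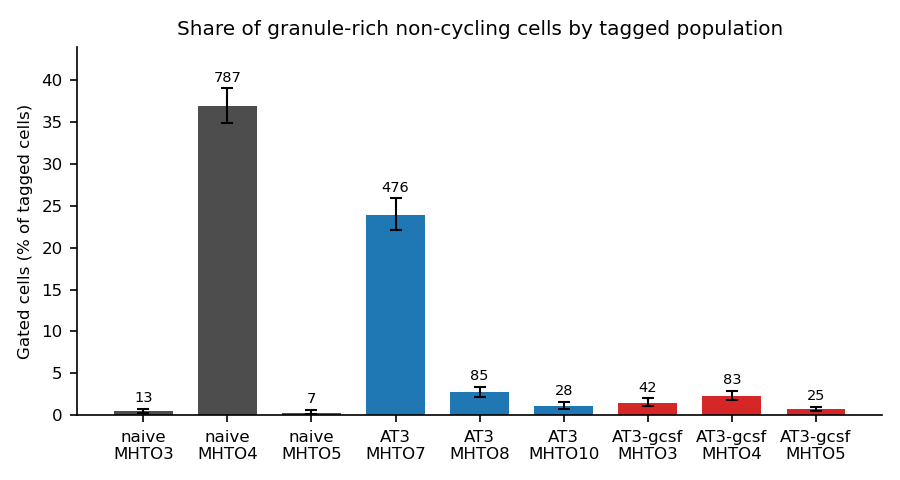
Share of tagged cells inside the gate (percent, y axis) for each tagged population (x axis, naive, AT3 and AT3-gcsf from left to right), with exact 95% Clopper-Pearson intervals that cover counting error only. Naive MHTO4 stood at 36.9% and AT3 MHTO7 at 23.97%, and the 3 AT3-gcsf populations lay between 0.672% and 2.32%.

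The minimum of 3% cut a continuous range. Among naive, AT3 and AT3-gcsf cells 37, 47 and 34 gated ones lay between 3% and 3.5%, and 57, 59 and 37 tagged and filtered cells lay just below, between 2.5% and 3%. The cells just inside were thus 34 of 150 in the AT3-gcsf gate but 37 of 807 in the naive gate. The median gated cell devoted 7.53%, 6.49% and 4.38% of its UMIs to Camp, Ltf and Ngp in the 3 libraries. Of the cells that reached 3%, the cell cycle limit removed 22, 27 and 5, and the primary granule limit removed 0, 0 and 3.

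Depth was also lowest in the naive and highest in the AT3-gcsf gate. The gated cells had a median of 8911, 17291 and 24119 UMIs and 1718, 2128 and 2487 genes, against 2651, 4471.5 and 7508.5 UMIs in the other tagged cells. Summed, they held 7365559, 10403322 and 3627076 UMIs, so the AT3-gcsf levels rest on the fewest cells and counts. The AT3 and naive libraries shared 44 barcodes, of which 1 was gated in both, and the other pairs shared 20 each, with none gated in both. Barcodes can recur by chance between lanes, and none was removed.

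Most markers of other cell types were low in the gated cells, but the naive erythroid sum was not, and the libraries differed. Summed over the 7 erythroid markers, naive gated cells held 458 CPM, AT3 14.9 CPM and AT3-gcsf 0 CPM, where all 7 members were at 0 and 3 counts would be 0.827 CPM. The naive sum ranged from 12.6 to 472 CPM between populations. The 8 lung epithelial and endothelial markers summed to 93.4, 59.5 and 19.9 CPM, mostly from the club cell secretoglobin Scgb1a1, with Epcam at 0 in all 3. The 8 B cell markers summed to 51.2, 12.7 and 6.62 CPM and the 8 T and NK cell markers to 21.9, 9.23 and 7.72 CPM, with Cd3e at 0 throughout. Of the 8 eosinophil markers, which summed to 63.1, 9.997 and 3.31 CPM, Epx, Prg2 and Il5ra were at 0 in every library. Among 8 monocyte markers the other 7 were under 20 CPM and Ly6c2, which immature neutrophils also carry, stood at 830.1, 948 and 603 CPM. The 8 macrophage markers summed to 4141, 2148 and 1659 CPM, nearly all from Chil3, which is also in the cargo list of the secondary granules. Apart from Ly6c2, each list summed above was highest in the naive gate. The part of foreign transcripts in the differences below was not tested.

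Of the genes that follow, only Cebpe marks this stage and lay outside the rule, and it went with the label. Cebpe, the gene of C/EBP epsilon, stood at 376, 164 and 99.3 CPM in the gated cells against 58.2, 28.4 and 17.3 CPM in the other tagged cells. Mki67 was at 0.815, 0.769 and 0.827 CPM and Elane at 1.09, 0.769 and 0.551 CPM, which the rule itself kept low. The calprotectin genes S100a8 and S100a9, abundant cytosolic proteins of neutrophils, made up 40.2%, 43.1% and 40.5% of all UMIs of the gate.

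The 3 genes of the gate did not keep their proportions. Camp, which encodes the cathelicidin precursor of an antimicrobial peptide, was at 31924 CPM in the naive, 20176 CPM in the AT3 and 9379 CPM in the AT3-gcsf gate. Ltf, the iron-binding lactoferrin, was at 10741, 10387 and 10796 CPM. Ngp, the neutrophilic granule protein, was at 37725, 36223 and 29746 CPM. Camp was therefore lower in both tumour libraries while Ltf was nearly level. In the populations with at least 50 gated cells Camp read 32061 CPM in naive MHTO4, 21211 in AT3 MHTO7, 16326 in AT3 MHTO8 and 10682 in AT3-gcsf MHTO4, in the same order as the libraries. Of the summed UMIs of the 3 genes, Camp took 39.7% in the naive, 30.2% in the AT3 and 18.8% in the AT3-gcsf gate, whereas Ngp took 46.9%, 54.2% and 59.6% and Ltf 13.4%, 15.6% and 21.6%. In UMIs per cell the median for Camp was 231, 302 and 137, for Ltf 92, 173 and 240.5 and for Ngp 301, 604 and 662, so the deeper AT3-gcsf cells held fewer Camp UMIs. Because the rule used the sum of these genes, their levels are given as a description.

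All 3 gate genes lie on chromosome 9, between 109847379 and 111042767 in GRCm38, a span of 1.20 Mb. Their promoters are shown because the genes share the gate and the C/EBP family is known to act on this class of gene. Each sequence is the 250 bases before the RefSeq start site in GRCm38.p6, on the strand of the gene, with every match to the C/EBP-type word TTNNGNAA, or TTNCNNAA on the other strand, in capitals. Camp lies on the minus strand at chr9:109849457-109849706, Ltf on the plus strand at chr9:111019042-111019291 and Ngp on the plus strand at chr9:110419558-110419807.
Camp: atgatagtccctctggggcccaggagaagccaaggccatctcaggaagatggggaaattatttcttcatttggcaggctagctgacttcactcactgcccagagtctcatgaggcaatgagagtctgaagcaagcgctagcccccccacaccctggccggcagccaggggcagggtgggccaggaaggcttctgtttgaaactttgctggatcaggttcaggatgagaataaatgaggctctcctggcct
Ltf: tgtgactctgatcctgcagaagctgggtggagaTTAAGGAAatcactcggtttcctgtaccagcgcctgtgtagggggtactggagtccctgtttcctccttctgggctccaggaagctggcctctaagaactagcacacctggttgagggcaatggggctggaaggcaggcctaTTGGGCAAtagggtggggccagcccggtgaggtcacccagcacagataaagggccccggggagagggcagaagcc
Ngp: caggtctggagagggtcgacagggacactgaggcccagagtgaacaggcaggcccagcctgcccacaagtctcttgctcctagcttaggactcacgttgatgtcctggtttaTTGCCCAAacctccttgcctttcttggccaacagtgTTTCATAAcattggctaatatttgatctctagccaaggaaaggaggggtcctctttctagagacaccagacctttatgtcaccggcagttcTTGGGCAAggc
The window of Camp held no match, that of Ltf held 2 matches and that of Ngp held 3 matches. GENCODE places each gene's start inside its window, at 109849617 for Camp, 111019271 for Ltf and 110419747 for Ngp. The counts therefore hold for the RefSeq starts only. Among 32851 mouse promoter windows of the same length, 36.8% held at least 1 match, 10.9% at least 2 and 2.61% at least 3. A match describes letters in a window and is neither a binding site nor a cause.

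The other cargo of the secondary granules split around Camp. Lcn2, the siderophore-binding lipocalin, was at 16581, 22366 and 23439.8 CPM, and read 16561 CPM in naive MHTO4, 22637 in AT3 MHTO7, 21069 in AT3 MHTO8 and 23059.5 in AT3-gcsf MHTO4. Every tumour population of at least 50 gated cells was thus above the naive one, with log2 ratios to naive of 0.43 and 0.5, short of the size of 1 by which a gene was called different. Pglyrp1, a peptidoglycan recognition protein, followed the same order at 3429, 3910.1 and 4519.6 CPM, as did Hp, the haemoglobin-binding haptoglobin, at 1786, 2976 and 3393 CPM. Chil3, a chitinase-like secreted protein, ran the other way at 4110.1, 2111 and 1586 CPM. So did the neutrophil collagenase Mmp8 at 3699, 2475 and 1740.2 CPM and Cybb, the catalytic subunit of the NADPH oxidase, at 1809, 1018 and 663 CPM. Cd177, a surface glycoprotein, was nearly level at 987, 930.5 and 1077 CPM.

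**Figure D2:**
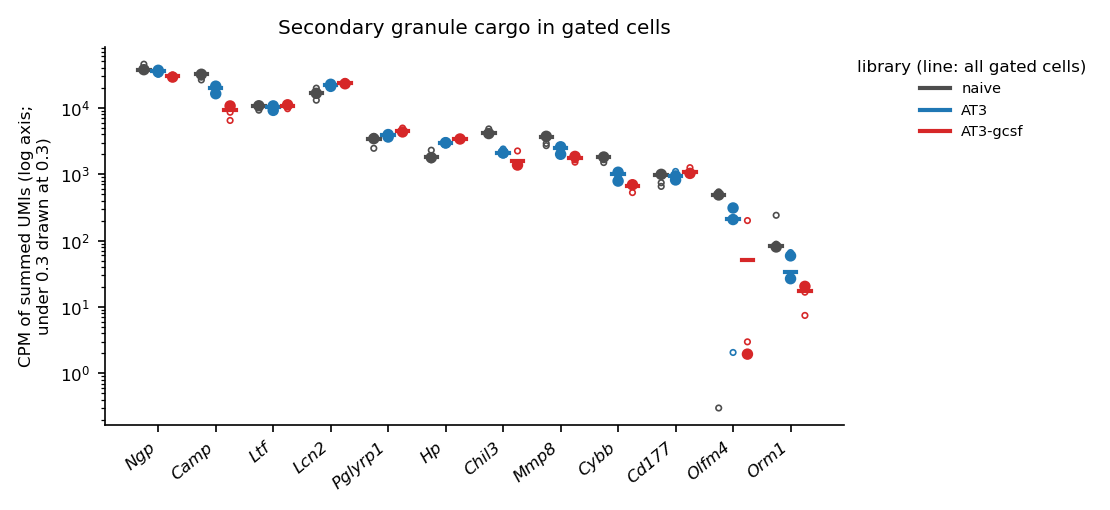
Level (CPM of summed UMIs, log axis; values under 0.3 CPM are drawn at 0.3) of secondary granule cargo genes in the gated cells of each library; lines mark the whole library and points its tagged populations, filled where at least 50 cells were gated and open where fewer were. Camp, Chil3, Mmp8 and Cybb were lower in the tumour libraries, Ltf was nearly level, and Lcn2 and Hp were higher.

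Of the 16 cargo genes measured, 0 were called higher and 2 lower in the AT3 than in the naive gate, where 9.8% of 3379 measured genes were called in either direction (80 higher and 251 lower). The AT3-gcsf gate had 0 higher and 7 lower of 16 against naive, with 28.1% of 3480 genes called (236 higher and 743 lower), and 0 higher and 2 lower against AT3, with 5.35% of 2820 genes called (107 higher and 44 lower). Of all measured genes 2.37%, 6.78% and 3.79% were called higher in these comparisons and 7.43%, 21.4% and 1.56% lower, and 3 of the 16 cargo genes are genes of the gate. The list's median log2 ratios were -0.26, -0.54 and -0.29, beside medians over all measured genes of -0.33, -0.41 and -0.05. Scaling by TMM, which assumes that most genes do not differ, moved these all-gene medians to 0.17, 0.16 and -0.04 and the cargo medians to 0.23, -0.04 and -0.28. With it 2 cargo genes were higher and 0 lower in AT3 against naive, and 3 higher and 3 lower in AT3-gcsf against naive. The AT3 against naive split over all genes became 195 higher and 27 lower, and that of AT3-gcsf against naive 471 higher and 268 lower, so the predominance of lower calls against naive depended on the scaling. Camp, Chil3, Mmp8 and Cybb stayed lower against naive and Lcn2 higher under either scaling, with TMM values for AT3-gcsf of -1.25, -0.86, -0.57, -0.93 and 1.01, whereas Ngp changed sign with the scaling, as did Ltf in AT3 against naive. The log2 ratio of Camp between AT3-gcsf and AT3 was -1.1, and -0.8 without AT3 MHTO7, no longer called.

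Olfm4, the olfactomedin 4 of a subset of neutrophils, was at 479, 215 and 51.3 CPM and was held by few cells. In the naive gate 87 of 807 cells (10.8%, interval 8.73 to 13.1) had at least 10 Olfm4 UMIs and carried 99.1% of them. In the AT3 gate 17 of 589 cells (2.89%, 1.69 to 4.58) carried 98.7%, and in the AT3-gcsf gate 1 of 150 cells (0.667%, 0.0169 to 3.66) carried 96.8%. The lower Olfm4 level in the tumour libraries thus went with a smaller share of Olfm4-rich cells. The single AT3-gcsf cell came from MHTO3, so MHTO4 of that library read 1.94 CPM. Orm1, the acute-phase orosomucoid, was more evenly spread and stood at 83.1, 33.7 and 17.1 CPM, with 62 UMIs in the AT3-gcsf gate.

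Among the regulators of granule formation Cebpe was lower and Cebpb higher in both tumour libraries, the latter through part of the populations. Cebpe lies at chr14:54710360-54712174 on the minus strand and read 381 CPM in naive MHTO4, 179 in AT3 MHTO7, 89.997 in AT3 MHTO8 and 112 in AT3-gcsf MHTO4. All 3 tumour populations lay below the naive one, with log2 ratios to naive of -1.17 for AT3 and -1.87 for AT3-gcsf, and -0.7 between the tumour libraries. Without naive MHTO4 the ratios to naive were -0.33 for AT3, no longer called, and -1.02 for AT3-gcsf. Without AT3 MHTO7 the ratio between the tumour libraries was -0.09. With TMM scaling the AT3 ratio was -0.68, no longer called, and that of AT3-gcsf -1.37. The other tagged cells, at far lower levels, had Cebpe ratios of -0.92 and -1.5 to naive. After each cell was thinned to 1500 UMIs, 36.5%, 15.8% and 10.0% of gated cells had a Cebpe UMI (76.95%, 70.5% and 63.3% unthinned). Cells with at least 3 UMIs of B or T cell genes were set beside them in each library. These cells may include doublets with neutrophils and may express some genes themselves, so they do not isolate free RNA. After thinning they had a Cebpe UMI in 1.25% of 80, 0% of 21 and 0% of 12 cells, where a count of 0 allows up to 14.3% and 25%. Unthinned, the shares were 7.32%, 4.76% and 16.7%, at median depths of 5017.5, 5847 and 7157.5 UMIs.

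Cebpb, at chr2:167688915-167690418 on the plus strand, stood at 191, 697 and 1178 CPM, with log2 ratios to naive of 1.84 and 2.59. Its level depended on the population, at 158 CPM in naive MHTO4, 254 in AT3 MHTO7, 2919.9 in AT3 MHTO8 and 699.7 in AT3-gcsf MHTO4. AT3 MHTO8 stood far above the other 3, as did the 25 gated cells of AT3-gcsf MHTO5 at 3223 CPM and the 7 of naive MHTO5 at 2343 CPM. Without AT3 MHTO8 the AT3 ratio to naive was 0.45, no longer called, and without naive MHTO4 it was -0.9. From the population with most gated cells in each library the AT3-gcsf ratio to naive was 2.11. The share of thinned gated cells with a Cebpb UMI was 21.9%, 41.1% and 67.3% (71.0%, 96.3% and 98% unthinned). It lay below (naive) or near (AT3 and AT3-gcsf) that of the lymphocyte-marked cells, 37.5%, 38.1% and 66.7% (64.6%, 76.2% and 83.3% unthinned). These shares thus do not set the gated cells above the lymphocyte-marked ones. Whether either kind of cell expressed Cebpb itself or took it up as free RNA was not tested.

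Cebpd stood at 379, 369 and 239.9 CPM and was not called in any comparison. Runx1, a factor of early blood cell differentiation, was at 35.7, 12.1 and 7.72 CPM and Klf5, a Kruppel-like factor, at 58.5, 33.3 and 17.1 CPM, both lowest in the AT3-gcsf gate. The log2 ratios of Runx1 to naive were -1.25 in AT3 and -1.68 in AT3-gcsf, both called, and -0.84 in AT3 with TMM scaling, no longer called. Thinning cells before the gate ended both calls, at -0.98 in AT3 and -0.44 in AT3-gcsf. Of 18 granulopoiesis transcription factors 14 were measured in the comparisons with naive; 1 was higher and 2 lower in AT3, and 1 was higher and 4 lower in AT3-gcsf, where 7.43% and 21.4% of all measured genes were lower; both counts lower are near those shares. The 1 higher in both was Cebpb. Of the 12 measured between the tumour libraries 0 were called, where 5.35% of all measured genes were called.

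Cxcr4 and Itgal, receptors of retention and adhesion, were lower in both tumour libraries than in naive. Cxcr4, the receptor for Cxcl12 of the marrow, was at 243 CPM (interval 232 to 255), 83.3 CPM (77.9 to 89.1) and 16.3 CPM (12.4 to 20.98). It read 243 CPM in naive MHTO4, 83.7 in AT3 MHTO7, 86.5 in AT3 MHTO8 and 16.5 in AT3-gcsf MHTO4. Populations that did not overlap were part of the rule that named Cxcr4, so this order is a description. The log2 ratios were -1.49, -3.54 and -2.05 for AT3 to naive, AT3-gcsf to naive and AT3-gcsf to AT3, and all 3 were called with TMM scaling too, at -1.01, -3.08 and -2.07. Thinned gated cells had a Cxcr4 UMI in 31.8%, 10.5% and 1.33% (84.8%, 68.8% and 30% unthinned), against 17.5%, 9.52% and 16.7% (56.1%, 61.9% and 58.3% unthinned) of the lymphocyte-marked cells, which can express Cxcr4 themselves. Itgal, the alpha chain of the integrin LFA-1, followed at 163, 73.3 and 39.4 CPM. Csf3r, the receptor of G-CSF, was at 227, 171 and 153 CPM and was not called in any comparison. Of 9 measured retention and egress receptors 0 were higher and 2, 3 and 1 were lower in the 3 comparisons, in which 7.43%, 21.4% and 1.56% of all measured genes were lower.

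The range of granule share inside the gate held a gradient of Cebpe, Chil3, Retnlg and Cxcr2 that ran the same way in each library. Between 3% and 5% lay 175 naive, 185 AT3 and 91 AT3-gcsf cells, between 5% and 10% lay 453, 368 and 58 cells, and at 10% or more lay 179, 36 and 1 cells. From the lower to the middle range Cebpe went from 195 to 367 CPM in naive, from 78.1 to 177 in AT3 and from 71.03 to 133 in AT3-gcsf. Chil3 went from 1357 to 3627, from 859.9 to 2349 and from 1127 to 2162 CPM. Retnlg and Cxcr2 of the late maturation list ran the opposite way. Retnlg, a resistin-like secreted protein, went from 22529 to 9556, from 20701 to 9832 and from 11147 to 5901 CPM. Cxcr2, the chemokine receptor that favours egress, went from 627 to 329, from 468 to 298 and from 337 to 261 CPM. Il1b, a cytokine of the same list, went from 136 to 177 CPM in naive, the other way, but from 977 to 348 in AT3 and from 538 to 207 in AT3-gcsf. Within the gate, cells with the larger granule share thus held more Cebpe and Chil3 and less Retnlg and Cxcr2, although the ranges were set on the same cells.

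**Figure D3:**
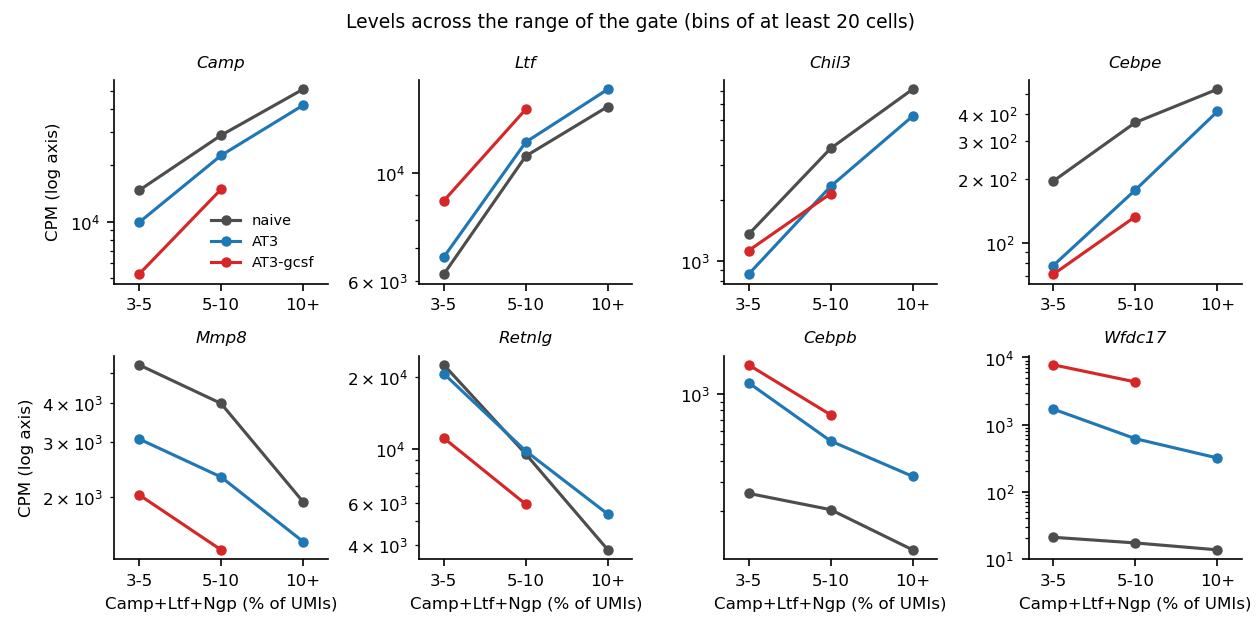
Level (CPM of summed UMIs, log axis) of 8 genes in gated cells with a Camp, Ltf and Ngp share of 3 to 5%, 5 to 10% and 10% or more (x axis), a line for each library; the AT3-gcsf point at 10% or more, which would rest on 1 cell, is left out. Chil3 and Cebpe were higher, and Mmp8, Retnlg, Cebpb and Wfdc17 lower, at larger shares in each library; Camp and Ltf are part of the share on the x axis, so their slope was set by it.

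At a matched share the mix of the gate's own genes differed between libraries; Camp and Ltf are part of that share, so these values describe its make-up. In the 3 to 5% range Camp stood at 14683, 9904 and 5243 CPM while Ltf stood at 6194, 6718 and 8770.1 CPM. In the 5 to 10% range Camp stood at 28900, 22560.2 and 14878 CPM. The order of Camp across libraries was thus the same in both ranges. Of genes outside the gate, Cebpe in the 3 to 5% range stood at 195, 78.1 and 71.03 CPM and Chil3 at 1357, 859.9 and 1127 CPM, so naive was highest for both but AT3-gcsf was above AT3 for Chil3. Across thinned cells of a library Camp and Ngp had Spearman correlations of 0.66, 0.54 and 0.38 (789, 589 and 150 cells of 1 library each, which share its depth and lane), Camp and Chil3 of 0.65, 0.56 and 0.24, and Camp and Mmp8 of -0.41, -0.34 and -0.39. Mmp8, although a cargo gene of the same granules, was therefore lower in the Camp-rich cells of every library.

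Of the genes ranked for naming, Wfdc17 and Ifitm1 had the highest log2 ratios of AT3 over naive. That ranking left out haemoglobin genes. The 4 measured erythroid markers were all called lower in AT3, with a median log2 ratio of -3.05, where 7.43% of all measured genes were lower. Wfdc17, a small secreted protein with a WAP domain, was at 16.8 CPM in naive and 910.0 CPM in AT3, a log2 ratio of 5.39. It read 13.98 CPM in naive MHTO4, 598 in AT3 MHTO7 and 2356 in AT3 MHTO8, so both AT3 populations were above the naive one. Ifitm1, an interferon-inducible transmembrane protein, was at 42.5 and 1061 CPM (40.8, 796 and 2249 in the same populations; log2 ratio 4.49). These AT3 levels were not above those of other cells in the lane: gated cells had a median of 387 CPM of Wfdc17 and 372 CPM of Ifitm1, against 543 and 606 CPM in the AT3 cells with lymphocyte transcripts. Thinned shares with a UMI were 53.5% of gated and 61.9% of lymphocyte-marked AT3 cells for Wfdc17 (98.6% and 85.7% unthinned). For Ifitm1 they were 50.3% and 52.4% (98.3% and 90.5% unthinned). The thinned shares of gated cells were thus not above those of the lymphocyte-marked cells, and the part of free RNA was not tested.

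Asprv1 was found in a larger thinned share of gated than of lymphocyte-marked AT3 cells, and other genes were called higher as well. Asprv1, a retroviral-like aspartic protease, was at 59.7 CPM in the naive and 780.3 CPM in the AT3 gate, with 59.1, 749 and 892 CPM in naive MHTO4, AT3 MHTO7 and AT3 MHTO8 and a log2 ratio of 3.6. Its thinned share in AT3 was 45.7% of gated and 9.52% of lymphocyte-marked cells (exact interval 1.17% to 30.4%; 81.3% and 23.8% unthinned). Prok2, the prokineticin also called Bv8, was at 23.1 and 298 CPM (22.4, 269 and 390.0 in these populations), a log2 ratio of 3.43, with a thinned share of 26.0% against 9.52% (74.9% and 19.0% unthinned), which lies inside the same interval. Both genes were above naive in each AT3 population. Ggt1, a gamma-glutamyltransferase that breaks down glutathione, went from 4.07 to 72.9 CPM, the endothelial lipase Lipg from 1.63 to 61.4 CPM, the ectoenzyme Cd38 from 1.22 to 39.3 CPM and the uridine phosphorylase Upp1 from 29.7 to 217 CPM. Their log2 ratios were 3.1, 3.32, 2.83 and 2.68. The thinned share with a Ggt1 UMI was 8.32% of gated and 4.76% of lymphocyte-marked AT3 cells (47.2% and 9.52% unthinned), alike within counting error. The other 3 genes were not set against the lymphocyte-marked cells. Cd38 read 1.26 CPM in naive MHTO4, 40.5 in AT3 MHTO7 and 35.3 in AT3 MHTO8, close within AT3.

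Cd14, the co-receptor for bacterial lipopolysaccharide, shows how 1 population could set a library's value. It stood at 42.6 CPM in naive and 433 CPM in AT3, but at 63.9 CPM in AT3 MHTO7 and 2292 CPM in AT3 MHTO8, against 25.2 CPM in naive MHTO4. Its log2 ratio of 3.2 was 0.66 without AT3 MHTO8, no longer called, and -0.54 without naive MHTO4. Genes lower in AT3 included the adhesion molecule Ncam1 at 71.5 and 11.1 CPM, the kinase Stk39 at 127 and 28.6 CPM, the ribonuclease Ear2 at 59.7 and 7.21 CPM and the proton channel Hvcn1 at 65.4 and 14.4 CPM. Stk39 read 129 CPM in naive MHTO4, 30.2 in AT3 MHTO7 and 15.9 in AT3 MHTO8, so both AT3 populations were below the naive one. Their log2 ratios were -2.25, -1.98, -2.41 and -1.86. Ear2 is also 1 of the eosinophil markers, whose defining members Epx and Prg2 were at 0.

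The AT3-gcsf gate carried Wfdc17, Ifitm1, Prok2 and Ggt1 at higher levels than the AT3 gate. Wfdc17 reached 6308 CPM (interval 6227 to 6390.4) and Ifitm1 12635 CPM (12519.8 to 12752), with log2 ratios to naive of 8.18 and 8.06. They read 5829 and 12843 CPM in AT3-gcsf MHTO4, against 598 and 796 CPM in AT3 MHTO7. The 12 lymphocyte-marked cells of that library also held both. For Wfdc17 the summed level was 6308 CPM in gated and 5781 CPM in lymphocyte-marked cells, and the median over cells 5368 and 1028 CPM. Its thinned share was 93.3% and 75% (exact interval 42.8% to 94.5%, with 100% of both unthinned), so gated and lymphocyte-marked cells are not told apart by it. For Ifitm1 the summed level was 12635 and 7481 CPM, the median over cells 12646 and 809 CPM, and the thinned share 100% and 91.7% (100% of both unthinned). Prok2 was at 1119.6 CPM and Ggt1 at 296 CPM, with log2 ratios to naive of 5.32 and 5.05 and to AT3 of 1.89 and 1.95. Prok2 ranged only from 1105 to 1146 CPM over the 3 AT3-gcsf populations, and 72.7% of AT3-gcsf gated cells held at least 10 Prok2 UMIs against 17.8% in AT3 and 0% in naive, where a count of 0 in 807 cells allows a share of up to 0.372%. Those cells differ in depth, and after thinning a Prok2 UMI was found in 4.06%, 26.0% and 71.3% of gated cells (16.2%, 74.9% and 97.3% unthinned), against 0% (0 of 80 allows up to 3.75%), 9.52% and 16.7% of lymphocyte-marked cells (6.10%, 19.0% and 50% unthinned).

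Stefin genes, which encode cysteine protease inhibitors, were high in the AT3-gcsf gate, with most of their UMIs in a minority of cells. Stfa2 was at 6.11, 98.05 and 759 CPM and Cstdc5 at 36.4, 244 and 2263 CPM, with log2 ratios of AT3-gcsf to naive of 6.1 and 5.78. Cstdc5 was at 10 UMIs or more in 1.12%, 3.90% and 21.3% of gated cells, and those cells carried 86.2%, 93.2% and 98.8% of its UMIs. Its populations differed within AT3-gcsf, at 2786 CPM in MHTO3, 2579 CPM in MHTO4 and 593 CPM in MHTO5. The stefins are near-identical copies in 1 cluster, so the split of UMIs between them is uncertain. Of the 10 measured stefins and other protease inhibitors, 4 were higher and 0 lower in AT3 than naive, and 5 were higher and 0 lower in AT3-gcsf against either library, beside 2.37%, 6.78% and 3.79% of all measured genes higher in the 3 comparisons.

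Saa3, an acute-phase serum amyloid, had 0 UMIs in the naive gate, 61 in the AT3 gate and 554 in the AT3-gcsf gate. Its AT3-gcsf level of 153 CPM was at least 375-fold higher than naive, taking 3 counts in the naive sum as the floor, and its log2 ratio to AT3 was 3.86. A Saa3 UMI was present in 70.7% of AT3-gcsf gated cells and 10% after thinning, against 66.7% and 33.3% of the 12 lymphocyte-marked cells. The thinned share of gated cells was thus not above that of the lymphocyte-marked cells, and the part of free RNA was not tested. Socs3, the feedback inhibitor of STAT3 signalling, stood at 6.92, 30.1 and 110.3 CPM, with log2 ratios of 1.56, 3.27 and 1.72 in the 3 comparisons, and read 6.29, 23.97, 50.6 and 116 CPM in naive MHTO4, AT3 MHTO7, AT3 MHTO8 and AT3-gcsf MHTO4. Without naive MHTO4 its AT3 ratio to naive was 0.08, no longer called. Thinned shares with a Socs3 UMI, 0.634%, 5.26% and 12.7% of gated cells (5.58%, 33.4% and 72.7% unthinned), were below the 5%, 23.8% and 16.7% of lymphocyte-marked cells (19.5%, 42.9% and 41.7% unthinned). Il4ra, a receptor chain for interleukin 4, was at 16.3, 42.7 and 117 CPM, and Lrg1, a leucine-rich glycoprotein of neutrophil granules, at 556, 1506 and 2248 CPM. Both were in the same order in the largest population of each library.

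Several genes of the naive gate were lower in the AT3-gcsf gate. Stk39 was at 1.93 CPM (7 UMIs) and Cxcr4 at 16.3 CPM (59 UMIs), with log2 ratios to naive of -4.26 and -3.54. Ncam1 had 1 UMI in the AT3-gcsf gate, with a log2 ratio to naive of -3.86 after adding 5 CPM. The counting interval of its ratio with nothing added, a different scale, ran from -13.33 to -5.54 in log2. Ifi27l2a, an interferon-inducible mitochondrial protein, was at 129 and 152 CPM in the naive and AT3 gates and 7.995 CPM in the AT3-gcsf gate. St3gal5, the GM3 ganglioside synthase, was at 324, 139 and 57.6 CPM and Syne1, a nuclear envelope spectrin repeat protein, at 364, 149 and 82.99 CPM, both lower in AT3 and lowest in AT3-gcsf. H2afz, a histone variant gene that is high in dividing cells, was at 765, 423 and 214 CPM.

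**Figure D4:**
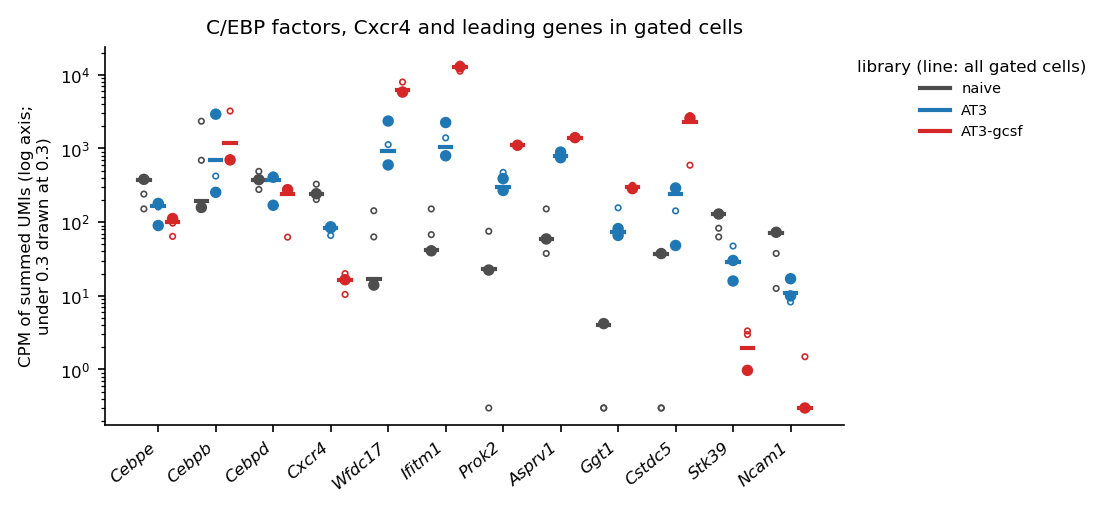
Level (CPM of summed UMIs, log axis; values under 0.3 CPM are drawn at 0.3) of C/EBP factors, Cxcr4 and leading genes of the comparisons in the gated cells of the 3 libraries. Lines mark the whole library and points its tagged populations, filled where at least 50 cells were gated and open where fewer were; Cebpe, Cxcr4 and Stk39 were lowest in AT3-gcsf, and Cebpb split by population, from 158 CPM in naive MHTO4 to 2920 CPM in AT3 MHTO8.

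The 2 tumour libraries differed in the fewest genes, and some of those higher in AT3-gcsf were near 0 in AT3. Spint1, a Kunitz-type protease inhibitor, was at 0.481 CPM in the AT3 and 38.9 CPM in the AT3-gcsf gate, Lat2, an adaptor of immune receptor signalling, at 1.73 and 47.7 CPM, and Casp6, an executioner caspase, at 4.52 and 57.1 CPM. Lat2 read 47.8, 44.7 and 56.6 CPM in MHTO3, MHTO4 and MHTO5 of AT3-gcsf, a narrow range against 1.095 and 3.53 CPM in AT3 MHTO7 and MHTO8. Other genes were lower: the interferon-stimulated Ifit1, which binds foreign RNA, was at 32.01 and 4.14 CPM and Rsad2, which encodes viperin, at 26.5 and 2.76 CPM. Of 17 interferon-stimulated genes measured, 6 were higher and 0 lower in AT3 than naive, where 2.37% of all measured genes were higher and 7.43% lower. In AT3-gcsf, 1 was higher and 5 lower than in AT3, where 3.79% of all measured genes were higher and 1.56% lower. The list medians were 0.68 and -0.48 beside all-gene medians of -0.33 and -0.05. Of the 14 measured between AT3-gcsf and naive, 3 were higher and 2 lower, and the 3 were Ifitm family members. Of all measured genes 6.78% were higher and 21.4% lower in that comparison.

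Ribosomal protein genes, a list picked after its values were seen, were higher in the AT3-gcsf gate. They made up 2.37%, 2.59% and 4.40% of the UMIs of the naive, AT3 and AT3-gcsf gates, and 2.36%, 2.58%, 2.61% and 4.54% in naive MHTO4, AT3 MHTO7, AT3 MHTO8 and AT3-gcsf MHTO4. In the other tagged cells the shares were 5.69%, 3.72% and 4.40%, so the order of the gate was not that of the remaining cells. Of 81 genes 2 were higher and 0 lower in AT3 than naive (median 0.10). In AT3-gcsf 35 were higher and 0 lower than naive (median 0.94), and 23 were higher and 0 lower than AT3 (median 0.77). Of all measured genes 2.37%, 6.78% and 3.79% were higher in these comparisons. The same ribosomal protein genes in the other tagged cells had medians of -0.69, -0.48 and 0.26. Ribosomal protein reads can also fall on processed pseudogenes, which makes single members uncertain.

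Genes of protein folding and secretion in the endoplasmic reticulum were likewise higher in part in the AT3-gcsf gate. Pdia6, a disulfide isomerase, was at 19.7, 20.1 and 71.1 CPM, with 19.9, 20.4, 19.999 and 88.5 CPM in naive MHTO4, AT3 MHTO7, AT3 MHTO8 and AT3-gcsf MHTO4. Sdf2l1, a chaperone cofactor, was at 1.36, 1.25 and 20.4 CPM, Sec61g, a subunit of the translocation channel, at 161, 173 and 370.0 CPM, and the chaperone Calr at 53.9, 41.2 and 124 CPM. Naive and AT3 were close and AT3-gcsf stood above both for each of these genes. Of the measured members 0 of 15 were called in AT3 against naive, and 7 were higher and 0 lower of 17 in AT3-gcsf against naive and of 16 against AT3 (6.78% and 3.79% of all measured genes were higher), with medians of -0.22, 0.73 and 0.9. In the other tagged cells the medians were -0.69, -0.76 and -0.08. Using only the population with most gated cells, the AT3-gcsf medians were 0.99 to naive and 1.09 to AT3.

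The list of tumour-associated secreted and membrane genes, drawn up with earlier results of these libraries known, had 11 of 15 measured members higher in AT3 than naive, 14 of 17 in AT3-gcsf than naive and 9 of 17 in AT3-gcsf than AT3, with 0 lower each time. Its medians were 2.68, 3.8 and 1.27, and in the other tagged cells 2.4, 3.17 and 0.39, so cells outside the gate showed differences of like size against naive. Of all measured genes 2.37%, 6.78% and 3.79% were higher in the 3 comparisons, and 9.8%, 28.1% and 5.35% were called in either direction. The primary granule list had 3 of 12 members measured between AT3 and naive and 4 in the other comparisons, and Ctsc, the protease that activates granule serine proteases, was at 2.72, 24.99 and 79.4 CPM. Prtn3, proteinase 3, which the gate kept low, was at 0.815, 5.58 and 24.8 CPM. S100a6, a calcium-binding protein, was at 5125, 10400.5 and 15225 CPM, and was the only 1 of 5 measured S100 genes called against naive. Of 18 oxidative phosphorylation genes 0 were called in any comparison, and of 7 NADPH oxidase genes only Cybb was called, in AT3-gcsf against naive.

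Inflammatory lists depended on single populations, the NF-kB list more than the G-CSF and STAT3 list. Of all measured genes 2.37% were higher and 7.43% lower in AT3 than naive, and 6.78% higher and 21.4% lower in AT3-gcsf than naive. G-CSF and STAT3 response genes had 8 of 15 measured members higher and 0 lower in AT3 than naive, a median of 1.16, but without AT3 MHTO8 the median was 0.11 with 5 members higher. In AT3-gcsf against naive 7 of 15 were higher and 1 lower, a median of 0.49, which was 0.05 from the largest populations alone. NF-kB feedback and cytokine genes had 4 of 8 measured members higher and 1 lower in AT3 than naive, a median of 0.80, and -0.25 without AT3 MHTO8. In AT3-gcsf against naive 6 of 10 were higher and 2 lower, a median of 1.22, and -0.48 without AT3-gcsf MHTO5, which held 25 of the 150 gated cells. Cxcl2, a chemokine that draws neutrophils, read 55.4 CPM in naive MHTO4, 57.8 in AT3 MHTO7, 1306 in AT3 MHTO8, 49.1 in AT3-gcsf MHTO4 and 1549 in AT3-gcsf MHTO5. The higher NF-kB medians thus rested on AT3 MHTO8 and AT3-gcsf MHTO5, and the largest populations of the 3 libraries were alike in Cxcl2. The G-CSF and STAT3 median fell too, but its 0.11 without AT3 MHTO8 stayed above the all-gene median of -0.33 in that setting. From the largest populations alone, its AT3-gcsf median of 0.05 stood beside an all-gene median of -0.42.

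**Figure D5:**
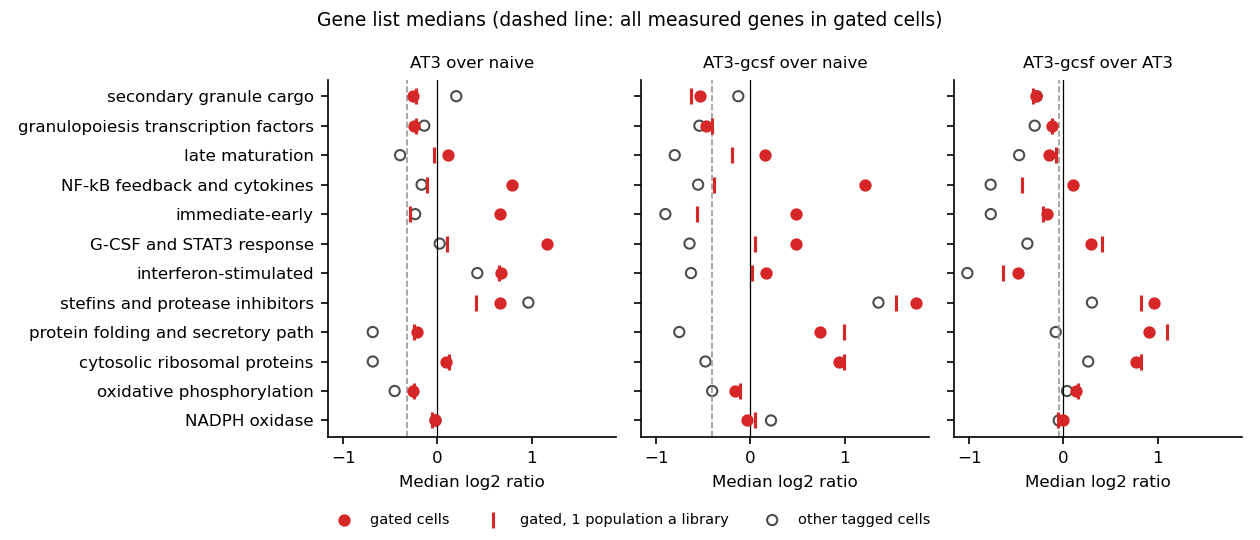
Median log2 ratio of 12 gene lists (x axis, after adding 5 CPM) in the 3 comparisons: filled points are all gated cells, ticks the gated cells of the population with most of them in each library, and open circles the other tagged cells; the dashed line is the median of all measured genes. The NF-kB, immediate-early and G-CSF and STAT3 lists were lower in the ticks than in the filled points against naive, and ribosomal protein and folding genes stood above the dashed line in AT3-gcsf in both.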

How the data were processed

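The authors deposited raw UMI counts per gene and barcode for 3 gene expression libraries and raw hashtag counts per barcode; reads were processed with bcl2fastq 2.20.0.422 and Cell Ranger 4.0.0 against mm10, per the submitters' processing notes. Hashtag counts were matched to a library by shared barcodes (94.1% to 97.4% of them, at most 0.672% otherwise). Gated counts were summed per library and tag and scaled to CPM. A gene was measured at 20 CPM and 20 counts in the higher sum, and called when its log2 ratio reached 1 or -1 (a 2-fold difference). No p-value was computed. Doublets of 1 tag were not removed. Members and lists were chosen with earlier results of these data known. Named genes were drawn from the 10 highest and 10 lowest called genes of each comparison whose populations of at least 50 cells did not overlap. That ranking left out gate, mitochondrial, ribosomal protein, haemoglobin and immunoglobulin genes and predicted models. For genes named by it, separate populations were thus a condition of naming. The gate and cargo genes and the 2 highest and lowest of each list were added. Not every gene so drawn is named, and Thbs1, ranked lowest in AT3 against naive, is not. Cxcr2 and the ribosomal protein list are outside that rule, chosen after values were seen. Python 3.11.15 was used, and edgeR 4.0.16 in R 4.3.3 for TMM. Alternatives covered the gate, scaling, added CPM, minimum level, depth and single populations. Promoters came from RefSeq in GRCm38.p6 and gene positions from GENCODE for GRCm38.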

Additional observations from a re-analysis of the deposited data

How the results depend on the processing

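The gated shares in naive, AT3 and AT3-gcsf cells kept their order under each alternative gate; they were 12.6%, 9.43% and 2.45% with a minimum of 2%, and 8.57%, 5.31% and 0.580% with a minimum of 5%. Genes called in AT3 against naive numbered 331, and 529 with totals without the 20 most abundant genes, 173 at 50 CPM, 202 without naive MHTO4 and 727 without AT3 MHTO7. In AT3-gcsf against naive there were 979, and 1752, 522 and 449 under the first 3 of these. In AT3-gcsf against AT3 there were 151, and 326, 97 and, without AT3 MHTO7, 254, and 313 with cells thinned to 1500 UMIs. The last split was 107 higher and 44 lower, but 142 and 184 without the 20 most abundant genes and 72 and 241 after thinning. Leaving out naive MHTO4 leaves 20 naive cells; the splits were then 99 higher and 103 lower for AT3 and 250 and 199 for AT3-gcsf. The cause of these shifts was not tested. Without naive MHTO4 log2 ratios to naive changed sign for Cd14 (-0.54 in AT3, -0.34 in AT3-gcsf), Cebpb (-0.90, -0.15), Cxcl2 (-0.44, -0.14) and Olfm4 (0.083 in AT3), as did the medians of the G-CSF and STAT3 list (-0.68 in AT3) and the NF-kB list (-0.999 in AT3-gcsf). Cxcl2 was also reversed without AT3 MHTO8 (-0.12), without AT3-gcsf MHTO5 (-0.47) and in AT3-gcsf from the largest populations alone (-0.16), and the NF-kB list without AT3-gcsf MHTO5 (-0.48) and from the largest populations (-0.39). Sums standardised to 3 ranges of granule share were not run for AT3-gcsf, which had 1 cell at 10% or more; 2 ranges, an alternative chosen after seeing the data, were used there. Leaving out cells under 3000 UMIs and scaling to totals without Camp, Ltf and Ngp were also added after seeing the data. No paired analysis was possible because each condition is 1 library and no label ties a tagged population of 1 library to one of another. The AT3-gcsf values rest on 150 cells. Of the called ratios of the genes named here, 13 of 31 (AT3 against naive), 36 of 47 (AT3-gcsf against naive) and 23 of 29 (AT3-gcsf against AT3) stayed past the fold under every alternative run. Leaving out naive MHTO4 took 20 of 78 under it and TMM scaling 10 of 107.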
